A study of Homo sapiens with 4 samples.

Results

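The clustered protocadherin genes are 53 of the 20098 protein-coding genes of human chromosomes 1 to 22 and X, and were chosen by symbol alone: genes of chromosome 5 named PCDHA, PCDHB or PCDHG followed by a number, or by a letter and a number. They comprised 15 alpha, 16 beta and 22 gamma genes, spread over 726824 bp of hg19 (chr5:140165721-140892544). The series profiled FLI1, SSRP1 and histone H3 acetylated at lysine 27 (H3K27ac) by ChIP-seq in SK-N-MC cells, a long-established line from Ewing sarcoma, with 1 library per target and no treatment named in the labels. Chromatin had been cut with micrococcal nuclease and sonicated, and the authors called the peaks of each library against an input library. The line is known to carry the EWSR1-FLI1 fusion, and a FLI1 peak can come from the fusion or from FLI1 itself, which cannot be told apart here. SSRP1 is a subunit of the histone chaperone FACT, and H3K27ac marks active promoters and enhancers. With 1 library per target, nothing checks a peak in a second library, no test was made, and the 95% intervals given below (exact Clopper-Pearson for shares, exact Poisson for peak numbers) cover counting error only.

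Clustered protocadherins are cell-surface adhesion proteins that neurons use to tell themselves from their neighbours. Each variable exon has its own promoter and codes for the whole extracellular part, the membrane span and a short stretch of the tail. In the alpha and gamma clusters, every variable exon is spliced to a set of constant exons shared by the whole cluster, while beta genes have no constant exons. Neurons, studied mainly in mouse, are known to choose a few of the alpha, beta, gamma A and gamma B promoters at random, with CTCF and cohesin looping the chosen promoters to distant enhancers. The C-type genes (PCDHAC1, PCDHAC2, PCDHGC3, PCDHGC4 and PCDHGC5), which lie last in their clusters, are known to be used without that choice.

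The labelled cell line fitted its markers. All 6 Ewing sarcoma marker genes examined (NR0B1, NKX2-2, CCND1, STEAP1, PRKCB and CCK) had peaks of all 3 lists within 1 kb of the transcription start site (TSS). Of 6 markers of other cell types, CD3D, CD3E, ALB, PTPRC and CDH5 had none, and EPCAM had SSRP1 alone. The lists numbered 36305 peaks for FLI1, 19855 for SSRP1 and 37195 for H3K27ac on chromosomes 1 to 22 and X.

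Most clustered protocadherin promoters are known to carry a short conserved element with the letters CGCT. The windows below, from the hg19 reference on the + strand, show copies of these letters for members with a peak and for neighbours without one. The copies were found by the letters GNCGCT alone (N is any base). A copy may therefore be the element or a match by letters only, which was not tested. Capitals mark the CGCT of the GNCGCT copy nearest to the TSS on the strand of the gene. PCDHA2, PCDHA8, PCDHB13 and PCDHGA9 had no peak within 1 kb, and the others had at least 1.
PCDHA1 (chr5:140165673-140165698): tggccacatgatgtCGCTgtacacca
PCDHA2 (chr5:140174368-140174393): tagccacatgatgtCGCTgtccacca
PCDHA4 (chr5:140186566-140186591): gagccacatgatgtCGCTctttacca
PCDHA8 (chr5:140220717-140220742): aagccacatgatgtCGCTgtctacca
PCDHA10 (chr5:140235428-140235453): aagccaccggatgtCGCTgtcgtcca
PCDHB5 (chr5:140514763-140514788): aggacgcctggtggCGCTgcaggcta
PCDHB11 (chr5:140579105-140579130): gagacacttggtggCGCTgcaggata
PCDHB13 (chr5:140593439-140593464): aggacgcgtggtggCGCTgcaggata
PCDHGA9 (chr5:140782283-140782308): aggactctgagcgcCGCTgttgatca
PCDHGA10 (chr5:140792500-140792525): aggactctgagcgcCGCTgttcacct
PCDHGC4 (chr5:140864521-140864546): ctgagcccgggagcCGCTgtctgcca
In the pairs compared, the window of a member with a peak was like that of a member without one. Of the 26 letters, PCDHA1 shared 24 with PCDHA2, PCDHB11 shared 22 with PCDHB13, and PCDHGA10 shared 23 with PCDHGA9. The letters GNCGCT, a pattern chosen after the member promoters had been read, occurred on either strand in 49 of 53 member promoters (92.5%), against 56.6% of all protein-coding promoters. A promoter here is the 300 bases from 250 before to 50 after the TSS. On the strand of the gene, 48 members held these letters. The CGCT of the nearest GNCGCT copy had a median position of -50 bases from the TSS. In 44 of them it lay within the 100 bases before the TSS. GNCGCT was present on that strand in 12 of 13 alpha genes other than the C type, 15 of 16 beta and 12 of 12 gamma A genes. It was also in 6 of 7 gamma B and 3 of 5 C-type genes. By peaks, 13 of the 15 members with a peak held it, and so did 35 of the 38 without. CGCT alone was in 96.2% of member promoters and 82.2% of all promoters. A CTCF-like pattern (CCNNNAGNNGGC, either strand) was in 1.89% of member promoters and 12.9% of all. Median promoter GC content was 39.67% in the members and 63.67% in all genes, and its part in these shares was not tested. Absence of the pattern says nothing about binding of CTCF.

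Few members carried any of the marks. A gene was taken to carry a mark when at least 1 bp of a peak lay within 1 kb of its TSS, which is the start of its variable exon. Neighbouring member TSSs were at least 3374 bp apart (median 6385.5 bp), and each peak within 1 kb of a TSS met 1 member. FLI1 lay at 4 of 53 members (7.55%, interval 2.09 to 18.2), against 22% of all protein-coding genes. SSRP1 lay at 3 (5.66%, 1.18 to 15.7), against 31.9% of all genes. H3K27ac lay at 11 (20.8%, 10.8 to 34.1), against 55.2%. No peak of any list lay at 38 members (71.7%, 57.7 to 83.2), against 39.6% of all genes, and all 3 marks lay together at 0 members (up to 6.72%), against 13.5%. Over the 884 genes of chromosome 5 alone, the shares were 26.0% for FLI1, 33.4% for SSRP1 and 55.1% for H3K27ac. With only peaks at or above the median width of their list, the counts were 2 members for FLI1 (PCDHA10 and PCDHGB3), 1 for SSRP1 (PCDHAC1) and 3 for H3K27ac (PCDHAC2, PCDHB5 and PCDHGC5), against 15.6%, 21.6% and 47.8% of all genes. The intervals treat genes as independent, which paralogs in 1 locus are not.

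**Figure D1:**
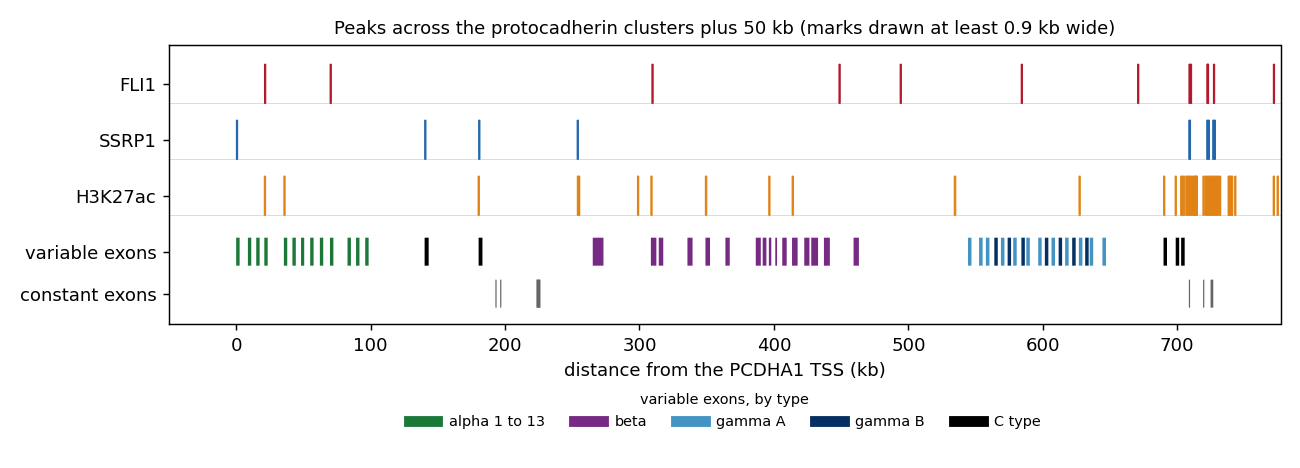
Peaks of the 3 lists (top 3 rows) and the variable and constant exons (bottom 2 rows) along the protocadherin clusters and 50 kb on each side. The horizontal axis is the distance from the PCDHA1 TSS in kb, and the colours of the variable exons give the type of gene. Peaks are thin and scattered over the alpha, beta and gamma A and B exons and dense at the right end, around and after the 3 gamma C-type exons, where 19 of the 31 H3K27ac peaks lie.

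In the alpha cluster, 6 of 15 members carried a mark (40.0%, interval 16.3 to 67.7), against 60.4% of all genes, which this interval holds. At PCDHA1, the first gene of the cluster, an SSRP1 peak of 310 bp (chr5:140165897-140166206) lay 172 bp downstream of the TSS, with no FLI1 or H3K27ac peak within 20 kb. At PCDHA4 a FLI1 peak of 237 bp lay 152 bp downstream and was wholly covered by an H3K27ac peak of 579 bp (chr5:140186665-140187243). PCDHA5 had an H3K27ac peak of 527 bp (chr5:140201216-140201742) beginning 18 bp past its TSS. PCDHA10 had a FLI1 peak of 292 bp beginning 120 bp past its TSS, with the nearest H3K27ac peak 33740 bp away. The 9 other alpha genes from PCDHA2 to PCDHA13 had no peak within 1 kb.

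FLI1 thus lay at 2 alpha genes whose exons are close copies of those of their neighbours. The FLI1 peaks at PCDHA4 and PCDHA10 both lay over the first part of the coding sequence in the variable exon. Their sequences are given from hg19 on the + strand, the PCDHA10 peak from its first coding base on, with the ETS core, the short site bound by FLI1 and its relatives, in capitals. The core CCGGAA lay on the opposite strand and therefore reads TTCCGG.
PCDHA4 (chr5:140186805-140187041): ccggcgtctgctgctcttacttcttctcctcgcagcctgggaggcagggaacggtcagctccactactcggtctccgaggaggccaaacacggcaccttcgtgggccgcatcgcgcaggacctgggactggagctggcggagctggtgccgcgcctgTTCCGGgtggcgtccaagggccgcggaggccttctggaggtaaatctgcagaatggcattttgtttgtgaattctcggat
PCDHA10 (chr5:140235634-140235893): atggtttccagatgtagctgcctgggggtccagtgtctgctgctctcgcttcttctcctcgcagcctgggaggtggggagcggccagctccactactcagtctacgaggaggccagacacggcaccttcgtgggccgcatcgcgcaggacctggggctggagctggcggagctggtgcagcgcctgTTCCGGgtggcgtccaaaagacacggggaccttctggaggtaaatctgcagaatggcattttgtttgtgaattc
The core began 310 bp past the TSS at PCDHA4 and 339 bp past it at PCDHA10. The 237 bases under the PCDHA4 peak had a closest ungapped match of 91.98% identity in the first kb of PCDHA10. In the 11 alpha genes of the same type without a FLI1 peak, the closest match was 87.34 to 91.98% identical (median 88.61%), and 9 of those 11 matches held the ETS core as well. PCDHA12, without a peak, matched as closely as PCDHA10 did. Outside this group of genes the closest matches were far less alike: 44.73 to 52.74% in the 16 beta genes and 52.74 to 58.23% in the 12 gamma A genes. In the alpha genes other than the C type the core was thus in 11 of 13 stretches and a FLI1 peak at 2.

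Close copies can make short reads hard to place. The share of 50-base words in the window around the TSS that occur again within the clusters was 3.84% at PCDHA4 and 4.87% at PCDHA10. Over the members it had a median of 0.256% and reached 38.7% at PCDHB8 and PCDHB13. It had a median of 0% in members with a mark and 0.973% in those without. The sources used here do not say how multiply mapped reads were handled, and their part in the counts was not tested.

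Beside PCDHA1, SSRP1 lay at both alpha C-type genes. PCDHAC1 had an SSRP1 peak of 865 bp (chr5:140305965-140306829) beginning 81 bp past its TSS, wider than 89.7% of SSRP1 peaks, with the nearest FLI1 peak 69991 bp and the nearest H3K27ac peak 39808 bp away. PCDHAC2, the last gene of the cluster, had an SSRP1 peak of 305 bp (chr5:140346116-140346420) inside an H3K27ac peak of 801 bp (chr5:140345692-140346492) that covered its TSS. It was also the member farthest from FLI1, at 110168 bp.

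In the beta cluster, H3K27ac lay at 4 of 16 genes and SSRP1 had 0 peaks in the whole 197975 bp, for which counting error allows up to 18.6 per Mb. PCDHB2 had an H3K27ac peak of 531 bp (chr5:140474203-140474733) beginning 4 bp past its TSS, and a FLI1 peak of 234 bp (chr5:140474982-140475215) 783 bp past it, and the peaks did not overlap. At PCDHB5 and PCDHB16 an H3K27ac peak covered the TSS, with widths of 1039 bp (chr5:140514749-140515787) and 454 bp (chr5:140561903-140562356). PCDHB11 had one of 331 bp (chr5:140579286-140579616) 86 bp past its TSS. The first gene, PCDHB1, had no mark and its nearest peak was H3K27ac at 10177 bp. The last, PCDHB15, had none either, with FLI1 at 10549 bp, H3K27ac at 45347 bp and SSRP1 at 205212 bp, the largest distance from SSRP1 among the members.

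In the gamma cluster, 17 of the 19 genes from PCDHGA1 to PCDHGA12 carried no mark (89.5%, interval 66.9 to 98.7), against 39.6% of all genes. Over the 102670 bp that hold their variable exons there were 1 FLI1 peak, 1 H3K27ac peak and 0 SSRP1 peaks. This is 9.74 peaks per Mb for FLI1 and for H3K27ac (0.2466 to 54.27), intervals that hold the genome densities of 11.96 and 12.25. The FLI1 peak, of 335 bp (chr5:140749692-140750026), covered the TSS of PCDHGB3. The H3K27ac peak, of 396 bp (chr5:140792673-140793068), began 119 bp past the TSS of PCDHGA10. PCDHGA1, the first gene, had no mark and its nearest peak was H3K27ac at 9076 bp. The genes without a mark were 11 of 12 gamma A and 6 of 7 gamma B genes.

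**Figure D2:**
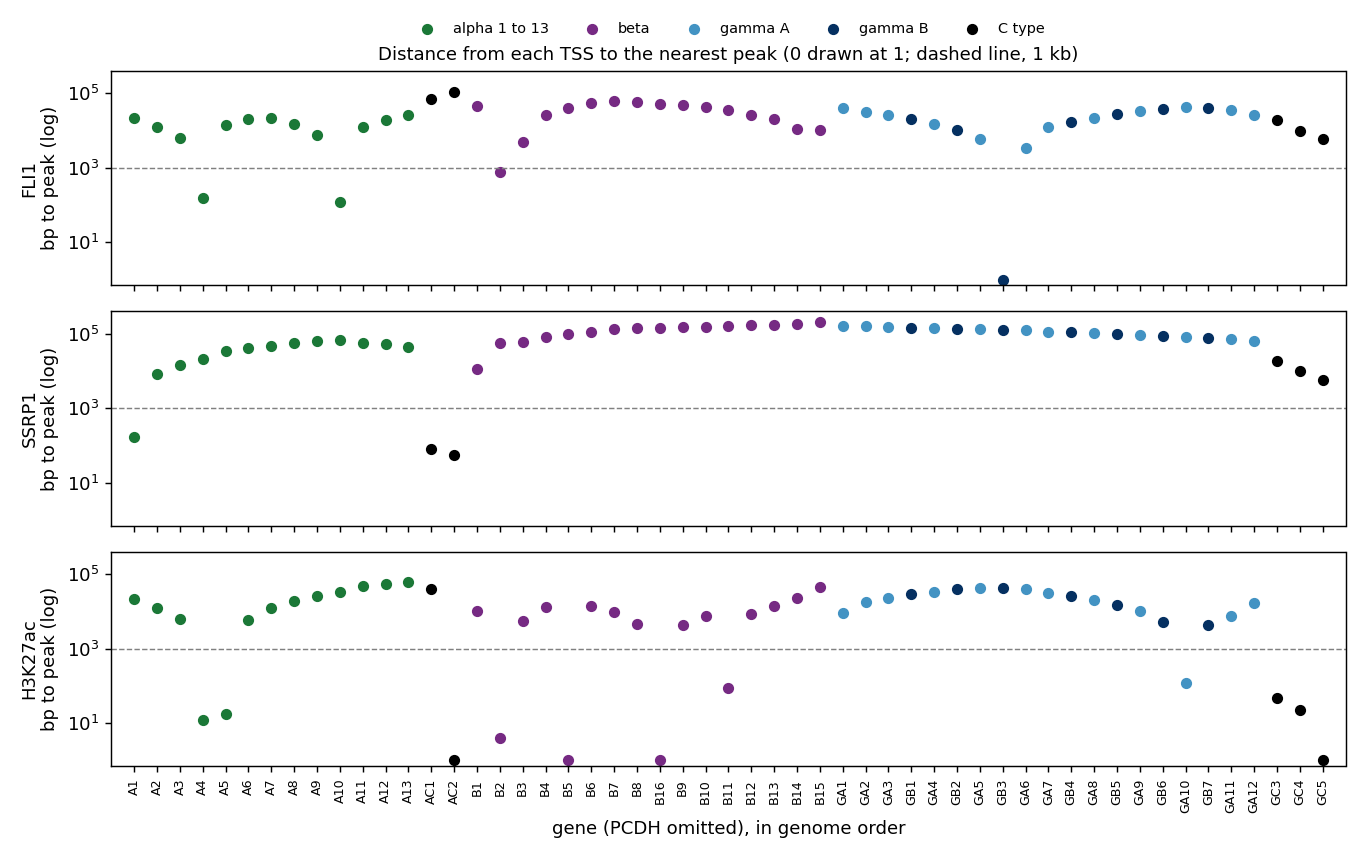
Distance in bp (log axis) from the TSS of each of the 53 members, in genome order, to the nearest peak of FLI1, SSRP1 and H3K27ac (one panel each), coloured by type of gene. Points under the dashed line at 1 kb carry the mark, which is the case for 4, 3 and 11 members in the 3 panels. The 5 C-type genes all lie under the line in at least 1 panel, as do 60.4% of all genes by the same rule.

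The members just outside the window stood well apart from those inside it. For FLI1 the nearest were PCDHGA6 at 3432 bp and PCDHB3 at 4842 bp, for SSRP1 PCDHGC5 at 5716 bp and PCDHA2 at 8231 bp, and for H3K27ac PCDHGB7 at 4176 bp and PCDHB9 at 4379 bp. The median distance from a TSS to the nearest peak was 21080 bp in members and 17403 bp in all genes for FLI1. It was 86776 bp in members and 23485 bp in all genes for SSRP1, and 12228 bp in members and 28 bp in all genes for H3K27ac. The longest run of neighbouring members with no mark was 11 genes.

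The C-type genes differed from the other members in the observed shares with a mark and in their base composition. All 5 carried at least 1 mark. H3K27ac lay at 4 of the 5 (80.0%, interval 28.4 to 99.5) and at 7 of the 48 other members (14.6%, 6.07 to 27.8). SSRP1 lay at 2 of the 5 and at 1 of the 48 (2.08%, 0.0527 to 11.1), while FLI1 lay at 0 of the 5 and at 4 of the 48 (8.33%, 2.32 to 20.0). Of the 48, 38 had no mark (79.2%). The intervals for H3K27ac lay barely apart, at 28.4 and 27.8, and those for SSRP1 and FLI1 overlapped. Because paralogs of 1 locus are not independent, these intervals cannot decide whether the types differ. Over all genes the shares were 55.2% for H3K27ac, 31.9% for SSRP1 and 22% for FLI1. Each lay inside the interval of the C type, which was 5.27 to 85.3 for SSRP1 and up to 52.2 for FLI1.

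**Figure D3:**
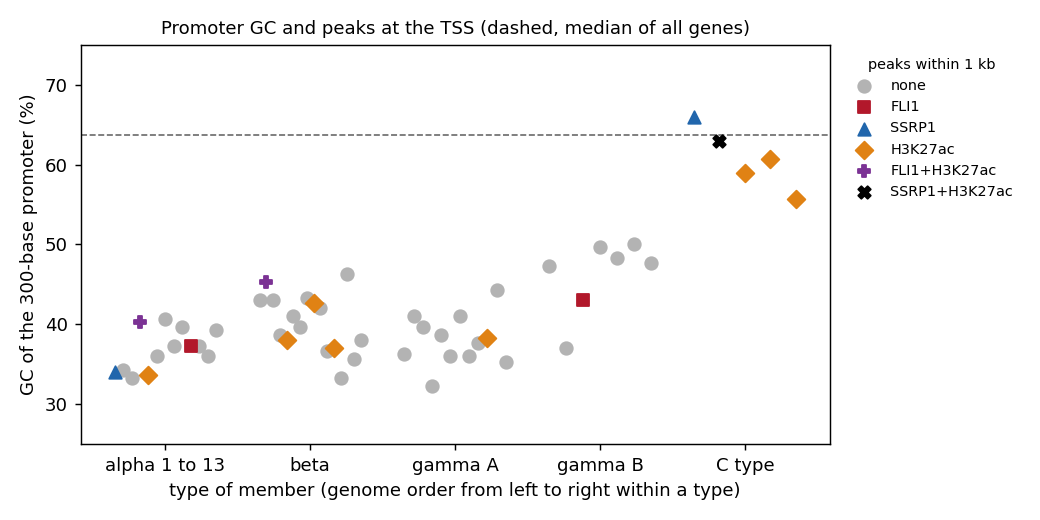
GC content (percent of the 300 bases around the TSS) of each member by type, with the symbol giving the peaks within 1 kb and the dashed line the median of all genes. The C-type genes lie between 55.67% and 66.0% and all carry a mark, against 60.4% of all genes. The other members lie between 32.33% and 50.0% and are mostly without one.

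Promoter GC content had a median of 60.67% in the C-type genes (55.67 to 66.0%), 38.67% in the other members (32.33 to 50.0%) and 63.67% in all genes. Genes anywhere in the genome within the GC range of these other members were rarely marked. Among 3177 other protein-coding genes in the GC range of the 48 members, H3K27ac lay at 14.7%, FLI1 at 5.26% and SSRP1 at 5.67%, and 82.9% had no mark. Each of these shares lay inside the intervals of the 48 members, and the last also inside that of the 19 gamma A and B genes. In the GC range of the C type, 6549 other genes had H3K27ac at 61.3%, SSRP1 at 28.5% and FLI1 at 24.2%. At least 1 mark lay at 66.0% of them. Each share lay inside the wide interval of the 5 genes. This comparison was added after the GC contents were known. It took every other gene between the lowest and highest GC of each group. GC content was not matched within the range, so the compared genes can differ from the members in their typical GC. Within the 48, GC content did not separate genes with H3K27ac (median 38.33%) from genes without it (38.67%).

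**Figure D4:**
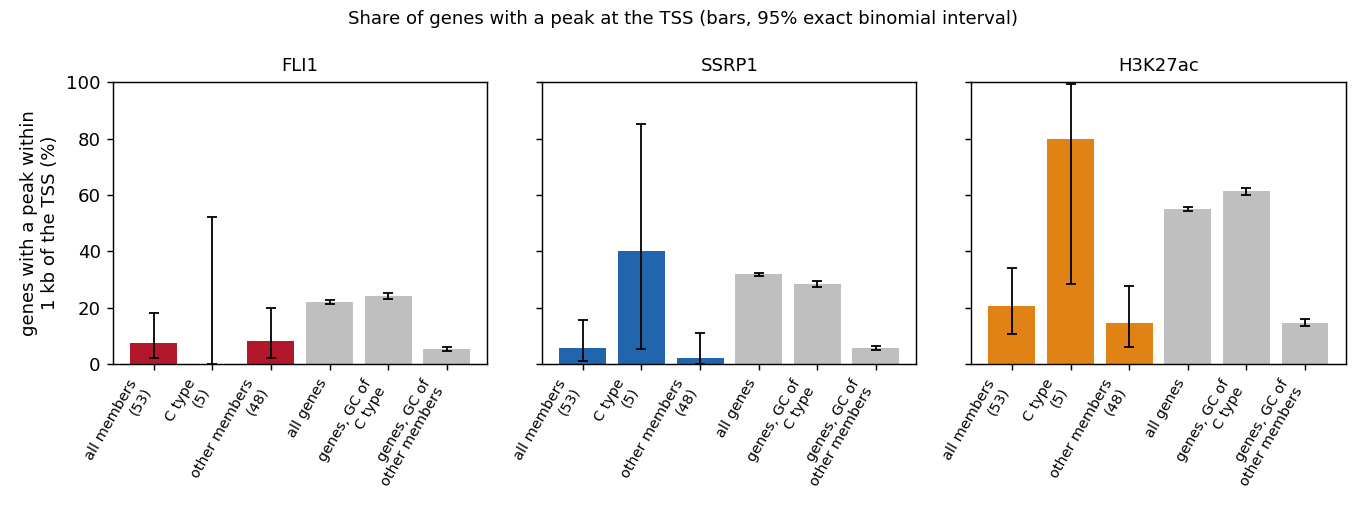
Share of genes (percent, bars) with a peak within 1 kb of the TSS, with exact 95% binomial intervals, for all members, the 5 C-type genes, the 48 other members, all genes, and other genes whose promoter GC lies in the range of the C type or of the other members. For the 48 other members and their GC range the H3K27ac bars stand at 14.6% and 14.7%, against 55.2% for all genes.

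The gamma C-type genes opened the most acetylated stretch of the locus. PCDHGC3 had an H3K27ac peak of 331 bp (chr5:140855579-140855909) 46 bp past its TSS, PCDHGC4 one of 396 bp (chr5:140864179-140864574) ending 23 bp before its TSS, and PCDHGC5 one of 1521 bp (chr5:140868300-140869820) over its TSS. None of the 3 had FLI1 or SSRP1 within 1 kb. From PCDHGC3 to 50 kb past the cluster, a stretch of 87012 bp that runs into DIAPH1, there were 19 H3K27ac peaks covering 25379 bp (29.17% of it), 6 FLI1 peaks and 5 SSRP1 peaks. Across chromosomes 1 to 22 and X, H3K27ac covered 1.275% of the length.

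In this stretch FLI1, SSRP1 and H3K27ac met at 3 places, none at a variable-exon TSS. These places lay at a constant exon, between constant exons, and at and past the end of the last constant exon. The first was at the first gamma constant exon, which every gamma transcript carries (chr5:140874374-140874432). An SSRP1 peak of 1234 bp (chr5:140874364-140875597, wider than 96.2% of the list) covered that exon. A FLI1 peak of 688 bp (chr5:140874448-140875135, wider than 95.8% of the list) began 16 bp after the exon and lay wholly inside the SSRP1 peak, and a second FLI1 peak of 633 bp (chr5:140875507-140876139) followed after 371 bp. All of these lay inside an H3K27ac peak of 4697 bp (chr5:140872820-140877516, wider than 98.4%). The 688 bp FLI1 peak held 1 ETS core and at most 2 consecutive GGAA, the repeat that the fusion is known to bind in longer runs. The intronic letters around that core, on the + strand of hg19 with the core in capitals, were as follows.
Gamma intron (chr5:140874533-140874658): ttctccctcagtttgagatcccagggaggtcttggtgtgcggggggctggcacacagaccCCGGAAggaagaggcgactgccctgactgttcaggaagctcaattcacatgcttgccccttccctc
The second place lay between the last 2 constant exons, inside an H3K27ac peak of 3832 bp (chr5:140886327-140890158). It held FLI1 peaks of 227 bp (chr5:140887799-140888025) and 551 bp (chr5:140888148-140888698) and SSRP1 peaks of 536 bp (chr5:140887709-140888244) and 377 bp (chr5:140888760-140889136). The narrower FLI1 peak lay wholly inside the wider SSRP1 peak. The last place lay at the end of the last constant exon, inside the widest H3K27ac peak of the region, 6335 bp (chr5:140890396-140896730, wider than 99.3% of the list). A FLI1 peak of 697 bp (chr5:140892654-140893350) began 110 bp past the end of the cluster and bridged the 191 bp between SSRP1 peaks of 682 bp (chr5:140892146-140892827) and 1124 bp (chr5:140893019-140894142). This FLI1 peak ended 1233 bp before the 3′ end of DIAPH1, a formin gene on the opposite strand, and so lay between the genes. The 682 bp SSRP1 peak began inside the last constant exon. The H3K27ac peak covered that exon and reached into DIAPH1. The place cannot be assigned to either gene.

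**Figure D5:**
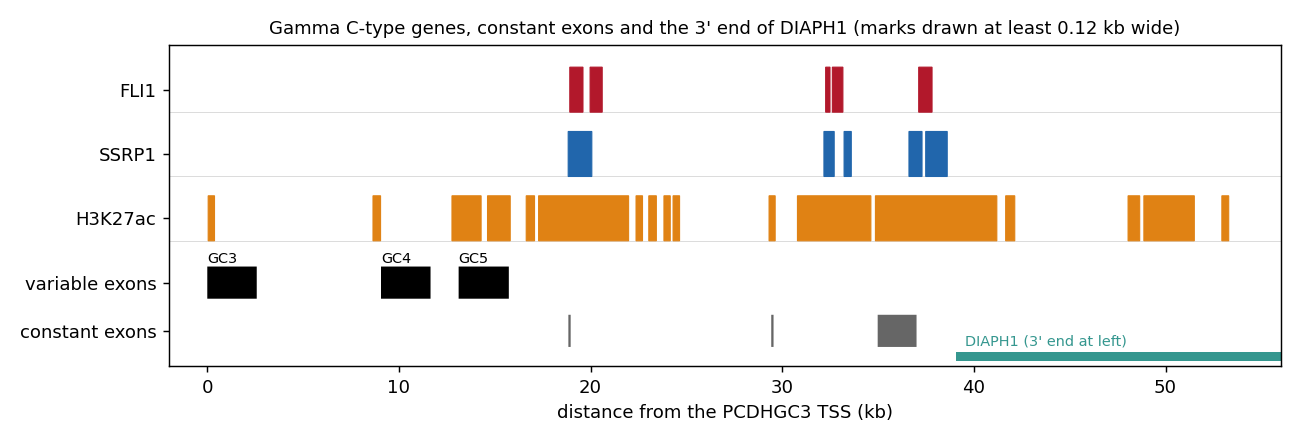
FLI1, SSRP1 and H3K27ac peaks (top 3 rows), the variable exons of PCDHGC3, PCDHGC4 and PCDHGC5, the gamma constant exons and the end of DIAPH1, by distance from the PCDHGC3 TSS in kb. The 5 FLI1 and 5 SSRP1 peaks shown sit in 3 groups inside the 3 widest H3K27ac peaks, past the variable exons.

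Peaks were also counted per Mb. Over the clusters and 50 kb on each side (826824 bp) there were 31 H3K27ac peaks, or 37.49 per Mb (interval 25.47 to 53.22), against 12.25 per Mb over chromosomes 1 to 22 and X. FLI1 had 13 peaks, or 15.72 per Mb (8.372 to 26.89), against 11.96, and SSRP1 had 9, or 10.89 per Mb (4.977 to 20.66), against 6.539. The intervals for FLI1 and SSRP1 held the genome values. The numbers leaned on the gamma end. Before PCDHGC3 (739812 bp), a split made after the data were seen, there were 16.22 H3K27ac (8.381 to 28.33), 9.462 FLI1 (3.804 to 19.5) and 5.407 SSRP1 peaks per Mb (1.473 to 13.84), and each interval held the genome value. The region is also crowded with genes: it held 57 protein-coding TSSs, where the median of 3358 tiles of the same length held 4. Over these tiles the medians were 6 H3K27ac, 6 FLI1 and 2 SSRP1 peaks, with upper quartiles of 14, 15 and 6. The 1 tile with at least as many protein-coding TSSs as the region (69) held 80, 34 and 45 peaks. The protocadherin region had 31 H3K27ac, 13 FLI1 and 9 SSRP1 peaks. Of the peaks, 11 of 31 for H3K27ac, 4 of 13 for FLI1 and 3 of 9 for SSRP1 lay within 1 kb of a member TSS. Peaks at member TSSs were narrow, with a median width of 527 bp for H3K27ac, 264.5 bp for FLI1 and 310 bp for SSRP1, against 653, 283 and 403 bp over the whole lists. The 3 widest H3K27ac peaks, all past the PCDHGC5 variable exon, made up 46.0% of the acetylated length of the region (14864 of 32313 bp).

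Overlap between the lists was counted over the same region. Peaks of 2 lists counted as shared when their overlap made up 20% or more of either one. H3K27ac covered 7 of the 13 FLI1 peaks in this way (53.8%, interval 25.1 to 80.8), against 28.4% of all FLI1 peaks, and 7 of the 9 SSRP1 peaks (77.8%, 40.0 to 97.2), against 60.6% of all SSRP1 peaks. SSRP1 was shared by 3 of the 13 FLI1 peaks (23.1%, 5.04 to 53.8), against 17.2% of all. Each interval held the share over the whole list. The FLI1 peaks shared with H3K27ac were that of PCDHA4, the 5 of the gamma end and 1 of 286 bp inside DIAPH1 (chr5:140937234-140937519). The SSRP1 peaks shared with H3K27ac were that of PCDHAC2, the 5 of the gamma end and 1 of 380 bp between the alpha and beta clusters (chr5:140419372-140419751), 27440 bp past the last alpha exon. Away from member TSSs, 3 FLI1 peaks lay alone: 1 of 227 bp between PCDHGA12 and PCDHGC3 (chr5:140836241-140836467), 1 of 298 bp in the beta cluster (chr5:140614117-140614414) and 1 of 269 bp inside TAF7, a gene for a general transcription factor subunit (chr5:140659625-140659893).

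Few member promoters held the ETS core: 5 of 53 (9.43%), against 22.6% of all promoters. Median promoter GC content was 39.67% in members and 63.67% in all genes, and its part in this difference was not tested. A run of 4 or more consecutive GGAA was in 5 of 20098 promoters (0.0249%). This is too rare for its absence from the 53 member promoters to be informative. Under the peaks of the region the core lay in 3 of 13 for FLI1, 3 of 9 for SSRP1 and 7 of 31 for H3K27ac. The shares over all peaks of each list are not given here, so these counts cannot be called low or high. The longest GGAA run was 2 in FLI1 and SSRP1 peaks and 6 in an H3K27ac peak. Absence of these letters in a window says nothing about binding of the factor.

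The protocadherins outside the clusters, adhesion genes each with a locus of its own, were counted as well. Of 12, 8 had no mark (66.7%, interval 34.9 to 90.1): PCDH7, PCDH8, PCDH10, PCDH11X, PCDH12, PCDH15, PCDH17 and PCDH19. The share over all genes, 39.6%, lay inside this interval. PCDH9 carried all 3 marks, PCDH20 SSRP1 and H3K27ac, PCDH1 SSRP1 and PCDH18 H3K27ac. Of 19 listed genes for regulators of protocadherin choice and of cohesin loops, all 19 had H3K27ac at the TSS, 13 had SSRP1 (68.4%) and 8 had FLI1 (42.1%), against 55.2%, 31.9% and 22% of all genes. Their promoters had a median GC content of 71.33%, against 63.67% in all genes, and its part in these counts was not tested. CTCF, the cohesin genes RAD21, SMC1A, STAG1 and STAG2, the loader gene NIPBL and the release factor gene PDS5B carried all 3. Of 14 genes for proteins that bind or cut clustered protocadherins, 13 had H3K27ac (92.9%), 7 SSRP1 (50.0%) and 6 FLI1 (42.9%), with a median promoter GC content of 68.5%. Among those with all 3 were the kinases PTK2 and FYN, the actin regulator NCKAP1 and the protease ADAM10, while CYFIP2, another actin regulator, carried none.

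Set beside other gene clusters, 71.7% of the protocadherin members were without a mark, against 33.3% of 39 HOX genes and 38.3% of 240 zinc finger genes of chromosome 19. SSRP1 lay at 5.66% of the members, 59.0% of the HOX genes and 15.8% of the zinc finger genes. Over all genes, 39.6% were without a mark and 31.9% had SSRP1. Median promoter GC content was 39.67% in the members, 55.33% in the HOX genes and 59.33% in the zinc finger genes. Its part in these contrasts was not tested. HOXA10, HOXB6, HOXB9, HOXC13, HOXC5, HOXD11 and HOXD8 carried all 3 marks, which 0 of the 53 members did.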

How the data were processed

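ChIP-seq peaks of FLI1, SSRP1 and H3K27ac in SK-N-MC cells were used, 1 deposited list per target. Bowtie2 alignment to hg19 and peak calling over the input library by the authors, with q-values under 0.05 kept, are recorded in the series' design text; MACS2 2.2.7.1, HOMER and deepTools are named in the submitters' processing notes. The deposited lists give the chromosome, start, end and name of each peak and no height, so depth and peak strength are unknown. The sources used here do not give the filtering of reads. The input library's reads were not analysed here.

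Lines that repeat an interval were counted once, so that 38324 FLI1 lines gave 36539 peaks, 23078 SSRP1 lines 19955 and 62198 H3K27ac lines 37271. Coordinates are 1-based. Genes and canonical TSSs came from GENCODE release 44 mapped to GRCh37; 2 of the 53 members (PCDHA6 and PCDHA7) lack a canonical transcript there and took the 5′ end of the gene. Sequences came from the GRCh37 reference, both strands searched.

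The members and lists were chosen with earlier results of these data known. Named were all members with a mark, the C type, the first and last member of each cluster, the 2 members per list nearest outside the window, peaks in more than 1 list, every gene of the non-clustered list and, of other lists, genes with all marks or none. HOX genes without marks and zinc finger genes are given as counts only. Not every listed gene is reported here by name. Alternatives were TSS windows of 500 bp, 2.5 kb and 5 kb, all basic TSSs, only peaks at or above their list's median width, flanks of 0 and 200 kb and other overlap minima. The backgrounds by chromosome and GC content, the density before PCDHGC3, the genome density of wide peaks, the ungapped matches to the PCDHA4 peak and the letters GNCGCT were added after the data were seen. The counting was tested on simulated data. The tools were pysam 0.24.0, matplotlib 3.10.9, samtools 1.23.1, scipy 1.17.1, pandas 2.3.3 and numpy 2.4.6 in Python 3.11.15.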

Additional observations from a re-analysis of the deposited data

How the results depend on the processing

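Of 42 alternative values, 30 stayed within 1.5 times the reported one and 12 moved further; the direction against all genes did not turn for any count of members. With only peaks at or above the median width of their list, members with a mark numbered 2 for FLI1, 1 for SSRP1 and 3 for H3K27ac. The shares of all genes were then 15.6%, 21.6% and 47.8%. Density fell to 10.89 per Mb for H3K27ac, 9.676 for FLI1 and 6.047 for SSRP1. Over chromosomes 1 to 22 and X, such peaks numbered 6.136, 5.992 and 3.271 per Mb. The H3K27ac value equals the SSRP1 density of the region at all widths, whose interval (4.977 to 20.66) holds 6.136. Under this setting the H3K27ac density thus no longer stood apart from the genome value. With TSS windows of 500 bp to 5 kb the members numbered 3 to 6 for FLI1, 3 for SSRP1 and 11 to 14 for H3K27ac, against 19.0 to 31.7%, 29.3 to 36.9% and 54.6 to 58.1% of all genes. Shared peaks depended on the overlap asked for. An overlap of 1 bp gave 5 FLI1 peaks with SSRP1, and 50% of either peak gave 2 SSRP1 peaks with FLI1. With 20% of both peaks, 2 FLI1 and 3 SSRP1 peaks were shared with H3K27ac, and 2 and 3 H3K27ac peaks with FLI1 and with SSRP1; H3K27ac peaks were much wider than the others there. No paired analysis was possible because each target has 1 library.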
